A study of Mus musculus with 8 samples.

Results

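The proteasome is the protease of the cytosol and nucleus that degrades proteins marked with ubiquitin. This account follows its genes in mouse 8F10 T cells that had matured in NOD or B16A hosts. The members were chosen by gene symbol: all rows of the deposited count table that begin with PSMA to PSMG and a number, leaving out the 3 immunoproteasome subunits Psmb8, Psmb9 and Psmb10 and 4 pseudogene-like rows with "-PS" in the symbol. This gave 47 of the 46625 gene names. The family itself was selected on the NOD against B16A values of these same libraries, which were known when it was picked, so its differences between the hosts are a description and support nothing. Of the 47 members, 16 were core genes (PSMA and PSMB), 21 carried base and lid symbols (PSMC and PSMD), 5 were activator genes (PSME) and 5 were the inhibitor Psmf1 and the assembly chaperones Psmg1 to Psmg4. Among the base and lid symbols, Psmd5, Psmd9 and Psmd10 encode assembly chaperones of the base. Psmc3ip, a meiotic recombination factor, also matches the symbol pattern without being a subunit. All of these are kept in the counts.

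The series compared T cells specific for an insulin peptide between hosts that make different insulin. Donor bone marrow stem cells, freed of T and B cells, came from CD45.2 mice that lack their own T cell receptor alpha chain and carry the 8F10 receptor. They were transferred to NOD or B16A hosts marked by CD45.1 that had been irradiated at a dose that was not lethal, so that host cells remained. After 6 weeks the 8F10 T cells were sorted by flow cytometry from the inguinal lymph nodes and their RNA was sequenced. NOD mice are the inbred strain that develops autoimmune diabetes and make native insulin. B16A mice are known as NOD mice without native insulin genes that make a transgenic insulin with a tyrosine of the B chain replaced by alanine. The strain label was NOD/ShiLtJ for all 8 libraries. Each host had 4 libraries, 1 in each of 4 batches, and "batch" is the word of the labels with no further meaning given. The labels do not say whether the libraries came from separate or pooled animals, so p-values reflect the spread among these samples only, part of which can be technical.

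The 26S proteasome joins a barrel-shaped core particle to a regulatory cap. Rings of alpha subunits gate the core, and rings of beta subunits line it, of which Psmb5, Psmb6 and Psmb7 cut protein chains. In the cap, the PSMC genes encode the ATPases of the base that unfold substrates, and the lid and the remaining base subunits, encoded by PSMD genes, bind ubiquitin and remove it. PSME genes encode other caps that open the core without ubiquitin. Lymphocytes and cells exposed to interferon also make Psmb8, Psmb9 and Psmb10, which replace the catalytic subunits and alter the peptides that are produced. The transcription factor Nfe2l1 raises the subunit genes together when proteasome activity is short.

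The members' promoters are shown for 3 genes because the results below turn on how unlike their levels were: Psmb6, a catalytic subunit that was higher in batch 4, Psmc6, a base ATPase with one of the largest batch 4 differences, and Psmd13, a lid subunit that was not called between batch 4 and the other batches. Each run covers 250 bases before to 50 bases after the gene start in the RefSeq table on GRCm38.p6, on the plus strand, at chr11:70525107-70525406 for Psmb6, chr14:45329574-45329873 for Psmc6 and chr7:140882144-140882443 for Psmd13. Capitals mark TGACNNNGC, a core form of the antioxidant response element to which Nfe2l1 and its relatives bind, and CCGGAAG, a form of the site of ETS factors.
Psmb6: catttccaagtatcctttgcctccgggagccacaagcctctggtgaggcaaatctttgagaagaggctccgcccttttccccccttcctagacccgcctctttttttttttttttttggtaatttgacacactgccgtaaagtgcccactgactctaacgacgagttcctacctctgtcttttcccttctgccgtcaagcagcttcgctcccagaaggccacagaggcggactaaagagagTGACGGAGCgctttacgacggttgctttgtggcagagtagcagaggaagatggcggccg
Psmc6: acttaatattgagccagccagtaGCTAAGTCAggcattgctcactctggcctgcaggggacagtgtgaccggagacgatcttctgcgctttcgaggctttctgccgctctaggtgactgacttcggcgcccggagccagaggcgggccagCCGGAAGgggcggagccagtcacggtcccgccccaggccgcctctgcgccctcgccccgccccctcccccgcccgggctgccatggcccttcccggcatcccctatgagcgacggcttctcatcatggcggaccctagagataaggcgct
Psmd13: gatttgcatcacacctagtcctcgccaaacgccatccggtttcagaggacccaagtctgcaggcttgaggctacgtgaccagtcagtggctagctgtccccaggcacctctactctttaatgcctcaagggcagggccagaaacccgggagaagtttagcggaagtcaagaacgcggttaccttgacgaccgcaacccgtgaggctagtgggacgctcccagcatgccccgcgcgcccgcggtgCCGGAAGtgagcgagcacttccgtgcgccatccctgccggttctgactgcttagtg
In Psmb6 the TGACNNNGC match began 9 bases before the start. In Psmc6 it lay on the minus strand 227 bases before the start, with a CCGGAAG match 100 bases before it. Psmd13 held CCGGAAG 6 bases before the start.

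Over the table, 39 member genes had 42 promoters, and both strands were searched for 8 motifs. CCGGAAG stood in 38.1% of the member promoters (16 promoters of 15 genes) and in 8.86% of all 32851 promoters. GGGCGG, the GC box, stood in 54.8% against 35.7%. TGACNNNGC stood in 14.3% of the member promoters (Psmb5, Psmb6, Psmc6, Psmd9, Psmd12 and Psme4) and in 12.4% of all. CCAAT stood in 33.3% against 37.4%, TATAAA in 7.14% against 13.6%, AAGATGGC in 7.14% against 2.75% and TTCNNNGAA in 4.76% against 8.3%. TGACGTCA was found in 0 member promoters and in 1.79% of all. A match describes letters in this window and is not a measured site. None of the 8 motifs contains another.

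Total counts were 4896593 to 6137666 in the 6 libraries of batches 1 to 3 and 28301805 (NOD) and 28094237 (B16A) in batch 4. They did not separate the hosts (exact two-sided permutation test over 70 arrangements, p = 0.743, n = 4 per host, smallest possible p 0.0286). Batch 4 stood apart in composition as well: 19751 and 20723 genes had a count against 29729 to 33175 elsewhere, the gene model Gm10800 took 0.00205% and 0.00469% of counts against 5.87% to 17.1%, and the actin gene Actb took 8.98% and 8.33% against 0.773% to 1.51%. Cd69, an early activation gene, stood at 4781 and 3734 CPM (counts scaled per library to TMM-adjusted library sizes) against 88.2 to 357. Of the 6 activation genes on its list, Cd69 was called higher in batch 4 and Egr1 and Il2ra lower, with a median log2 difference of -0.02. The labelled cell type was borne out by its markers, with Cd4 at 699 to 1204 CPM and the 7 T cell markers summing to 5070 to 15484 CPM in NOD and 4446 to 11791 CPM in B16A libraries. Of the 2 CD8 T cell markers, Cd8b1 stood at 62.6 to 186 CPM and Cd8a at 0 to 3.56 CPM. Of the 6 B cell markers, Ighm reached 428 to 1271 CPM while Ms4a1 did not exceed 3.18 CPM. Of the 5 stroma and endothelium markers, Pecam1 stood at 269 to 403 CPM and the others did not exceed 10.7 CPM. The 7 myeloid and dendritic cell markers summed to 34.1 to 58 CPM in batches 1 to 3 and to 2.73 and 4.36 CPM in batch 4. In bulk libraries such as these, fewer cells of a type and less RNA per cell cannot be told apart.

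Proteasome genes were expressed in the libraries of both hosts. Of the 47 members, 45 passed the filter on low counts. The remaining pair were Psma8, the alpha subunit of germ cells, with 0 to 10 counts, and Psmb11, the catalytic subunit of the thymic cortex, with 0 to 21 counts. Summed member counts took 0.229%, 0.188%, 0.252% and 0.599% of the counts of the NOD libraries in batches 1 to 4, and 0.231%, 0.163%, 0.217% and 0.528% in the B16A libraries. The share was higher in the NOD library in 3 of 4 batches, and its range over both hosts in batches 1 to 3 lay below both batch 4 values.

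Levels compared between genes are given as CPM per kilobase of merged exons, as the median of the 6 libraries of batches 1 to 3. Psmc5, a base ATPase, was at 154, the activator subunit Psme1 at 84.1, the ATPase Psmc3 at 72.5, the alpha subunit Psma6 at 40 and the ATPase Psmc1 at 35.6. At the low end stood the base assembly chaperone Psmd9 at 0.892, the core assembly chaperone Psmg3 at 1.27 and the alpha subunit Psma5 at 2.17. The subunits of 1 particle therefore differed widely in their counts per length. The catalytic subunits were unequal too: Psmb6, with caspase-like activity, was at 21.1, Psmb5, with chymotrypsin-like activity, at 3.87, and Psmb7, with trypsin-like activity, at 3.9. Per kilobase, Psmb5 and Psmb7 did not differ beyond their spread over the libraries (2.08 to 6.12 and 3.39 to 4.76). This rests on merged exon lengths of 899 bases for Psmb5 and 3421 for Psmb7. In plain CPM their ranges in batches 1 to 3 were apart, at 1.87 to 5.5 for Psmb5 and 11.6 to 16.3 for Psmb7. Several subunits have processed pseudogenes with near-identical sequence, and Psme2 has the near-copy Psme2b, so reads of 50 bases could have been split or left out and the levels of such genes are uncertain.

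**Figure D1:**
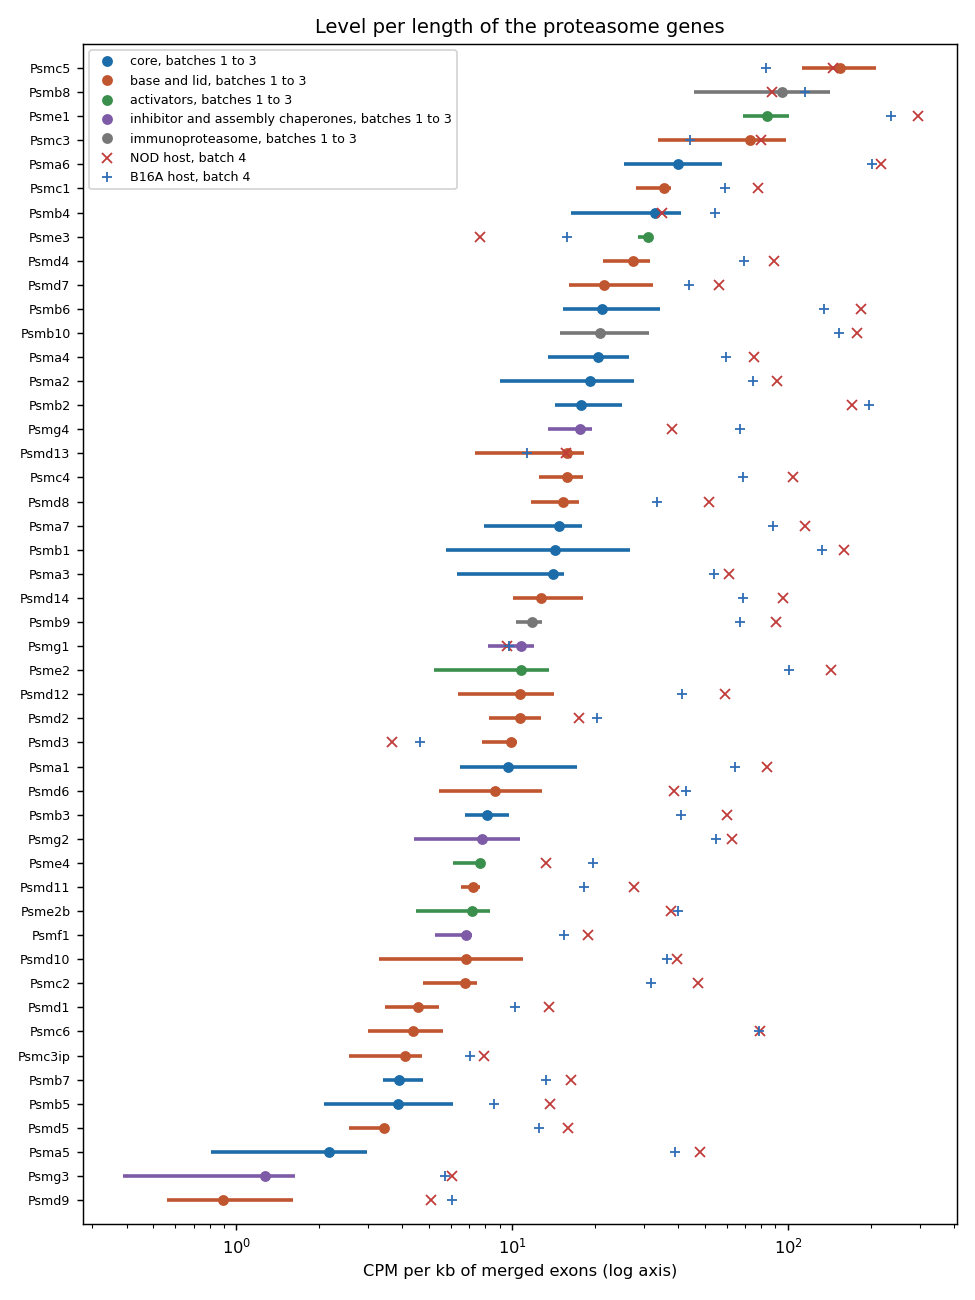
Level of each tested proteasome gene and the 3 immunoproteasome subunits as CPM per kilobase of merged exons on a log axis. Circles are the median and bars the range of the 6 libraries of batches 1 to 3, and crosses and plus signs are the NOD and B16A libraries of batch 4. Psmc5 lies highest at a median of 154 and Psmd9 lowest at 0.892, and most batch 4 symbols lie to the right of the bars.

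Each catalytic subunit has a counterpart in the immunoproteasome. Per kilobase, the level of Psmb8 was 16.3 to 40.9 times that of Psmb5 in batches 1 to 3, and 6.4 (NOD) and 13.3 (B16A) times in batch 4. Psmb10 was at 3.92 to 9.27 times the level of Psmb7 in batches 1 to 3 and at 10.9 and 11.5 times in batch 4. Psmb9 was below Psmb6, at 0.372 to 0.739 times in batches 1 to 3 and 0.492 and 0.495 times in batch 4. The NOD and B16A ratios overlapped in batches 1 to 3 for each of the 3 pairs. By these levels the immunoproteasome transcript stood above the constitutive one at the Psmb5 and Psmb7 positions. At the Psmb6 position it stood below, but this depended on the merged exon lengths, 3660 bases for Psmb9 and 1872 for Psmb6. In plain CPM, Psmb9 lay above Psmb6 in the NOD library of batch 2 (41.3 against 28.6). It also did in the B16A libraries of batches 2 and 3 (44.8 against 31.1 and 43.7 against 38.7). In the other libraries Psmb9 lay below Psmb6 in CPM. The Psmb5 ratios of batches 1 to 3 rested on 12 to 34 counts of Psmb5 per library. Loss of Psmb5 or Psmb7 reads in counting was not tested.

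The first comparison set T cells from NOD hosts against those from B16A hosts. In each of batches 2 to 4 more than 60% of the core genes and of the base and lid genes were higher in the NOD library. In batch 1 this held for 8 of 14 core and 9 of 21 base and lid genes, and for the activators it held for 1 or 2 of 5 in each batch. Psmb1, a structural beta subunit, Psmc3 and Psmd13 had the largest differences, at 0.60 to 0.80 on the log2 scale with the batch as a term. No member passed the threshold of 0.05 on the adjusted p in edgeR's quasi-likelihood test without a batch term, where 0 of 14607 genes were called (0%), 34 genes (0.233%) and 0 members had an unadjusted p below the threshold, and DESeq2 and limma voom called 0 genes as well. With the batch number as a block, edgeR again called 0 genes (0%), with an unadjusted p below the threshold for 857 genes (5.87%) and for 5 members, all higher in NOD: Psmb1, Psmb6, Psmc3, Psmc5 and Psmd13.

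The calls depended on the tool and on batch 4. With the batch term, DESeq2 called 18 of the 4129 genes with an adjusted p as higher in NOD (0.436%), among them Psmb1 and Psmc3, and limma voom called 8 of 14607 (0.0548%), among them Psmb1. In edgeR with the batch term and only batches 1 to 3, 25 of 15716 genes were called higher in NOD (0.159%), and Psmb1 was the member among them. As the family was selected on this contrast, nothing is read from these counts.

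Batch by batch, 20, 25, 28 and 34 of the 45 tested members were higher in the NOD library in batches 1 to 4 (44.4%, 55.6%, 62.2% and 75.6%), beside 50%, 53.4%, 48% and 46.4% of all tested genes. The members' median log2 ratio, NOD over B16A, was -0.03, 0.06, 0.19 and 0.31, beside 0.00, 0.05, -0.03 and 0.00 for all tested genes. In batch 1 the members thus lay near the median of all genes, and in batches 3 and 4 above it. For the core genes the medians were 0.11, 0.23, 0.32 and 0.30. For the base and lid genes they were -0.03, 0.12, 0.14 and 0.39, and for the activators -0.02, -0.29, -0.02 and -0.08. Within the base and lid set, the 6 ATPases had medians of -0.05, 0.44, 0.25 and 0.59 and the 8 lid subunits 0.03, 0.09, 0.36 and 0.47.

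Over the 8 libraries without a batch term, the median log2 fold change of the members was 0.16, with 35 of 45 above 0, beside 0.03 for all tested genes with 7909 of 14607 above 0. It was 0.26 for the 14 tested core genes, 0.16 for the 21 base and lid genes, -0.11 for the 5 activators and 0.08 for the inhibitor and chaperones. With the replicate block the medians were 0.13, 0.21, 0.19, -0.25 and 0.08 in the same order. Leaving out 1 batch 4 library, which keeps batch 4 in 1 host only, moved the unblocked member median. It was -0.78 without the NOD library of batch 4 and 0.94 without the B16A library of batch 4. With both left out and no block it was 0.11, and it was 0.23 for the core, 0.12 for base and lid and -0.16 for the activators. With both left out and the block in the fit, the member median was 0.10, with 29 of 45 members above 0.

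NOD was higher in all 4 batches for 8 members, beside 7.43% of all tested genes: Psma2, Psma5, Psma6 and Psmb1 of the core, Psmc3, Psmc6 and Psmd13 of the base and lid, and the assembly chaperone Psmg2. NOD was lower in all 4 batches for 0 members, beside 6.85% of all tested genes. For 0 of the 45 members did all 4 NOD libraries lie above or below all 4 B16A libraries, beside 0.205% of all tested genes above and 0.39% below. Within batches 1 to 3, the 3 NOD libraries lay above the 3 B16A libraries for Psma5 and Psmc6 and below them for Psmd4, the ubiquitin receptor of the base, beside 4.75% and 5.44% of all tested genes. The 8 of 45 members higher in all 4 batches were a larger share than the 1085 of 14607 tested genes. As the family was selected on this contrast, nothing is read from it. The other counts were near or under those of all genes.

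**Figure D2:**
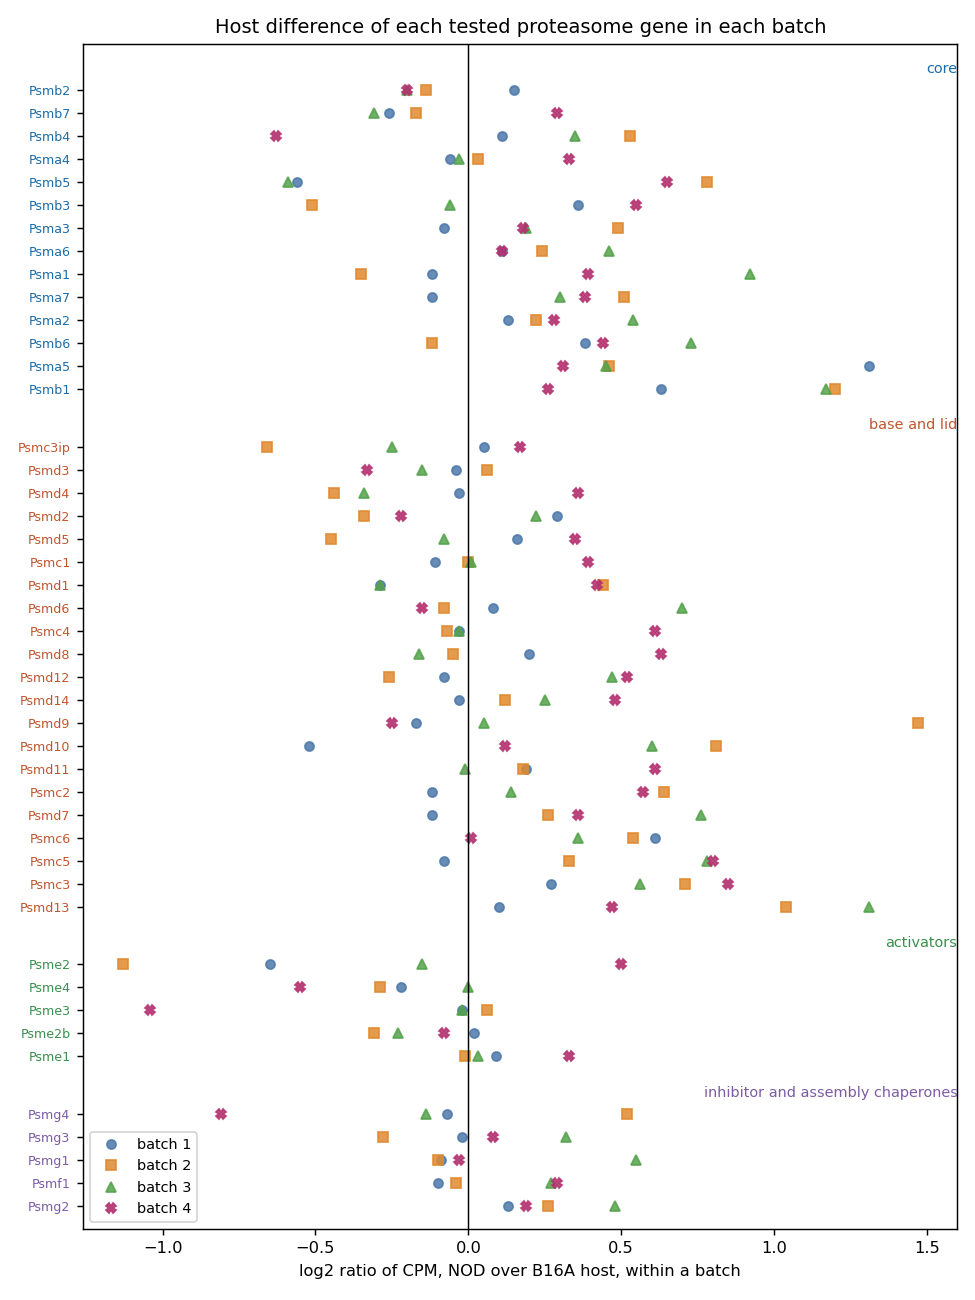
CPM ratio (log2) between the NOD and the B16A library of each of the 4 batches, for each tested proteasome gene, grouped by role; each symbol is 1 pair of libraries and the line marks 0. Psmb1, Psmc3 and Psmd13 lie to the right of 0 in all 4 batches, and the activators scatter on both sides.

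Psmb1 is a structural subunit of the beta ring (chr17:15475021-15499751, minus strand, mm10). Its level was 109, 61.1, 123 and 732 CPM in the NOD libraries of batches 1 to 4 and 70.5, 26.5, 54.4 and 610 CPM in the B16A libraries. The NOD library was the higher one in each batch, and the hosts overlapped because batch differences were larger. The within-batch log2 ratios were 0.63, 1.20, 1.17 and 0.26. The log2 fold change was 0.43 (SE 1.14) in edgeR without the batch term and 0.80 (SE 0.17, adjusted p = 0.683) with the replicate block. It was 1.00 (adjusted p = 0.00228) in edgeR with the block and without batch 4, 0.81 (adjusted p = 0.0046) in DESeq2 with the block and 0.82 (adjusted p = 0.0456) in limma voom with the block. Without the block it ran from -1.02 when the NOD library of batch 4 was left out to 2.39 when the B16A library of batch 4 was.

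The 3 catalytic subunits did not share a direction between the hosts in any of batches 1 to 3, and all 3 were higher in NOD in batch 4. Psmb6 stood at 52.8, 28.6, 64.2 and 343 CPM in NOD and 40.5, 31.1, 38.7 and 253 CPM in B16A libraries, with NOD the higher in 3 of 4 batches. Psmb5 stood at 2.41, 3.37, 3.6 and 12.3 CPM in NOD and 3.65, 1.87, 5.5 and 7.75 CPM in B16A libraries, higher in NOD in batches 2 and 4. These rested on 12 to 34 counts per library in batches 1 to 3. Psmb7 stood at 13.6, 11.6, 11.6 and 55.7 CPM in NOD and 16.3, 13.1, 14.4 and 45.5 CPM in B16A libraries, lower in NOD in batches 1 to 3. With the block, the log2 fold changes were 0.37 (SE 0.16) for Psmb6, 0.09 (SE 0.45) for Psmb5 and -0.09 (SE 0.21) for Psmb7, and without batch 4 they were 0.35, -0.15 and -0.25. Exons of Psmb7 share 405 bases with Nek6 on the opposite strand, and use of strand in counting is not given in the sources used here, so the reads of the pair cannot be told apart there.

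Psma5, a subunit of the alpha ring, was at 2.93, 3.93, 2.94 and 63.5 CPM in NOD and 1.07, 2.81, 2.1 and 51.3 CPM in B16A libraries. In batches 1 to 3 these were 17, 21 and 18 counts in NOD and 7, 18 and 13 counts in B16A libraries, so the ratio of each batch is imprecise. The log2 fold change with the block was 0.57 (SE 0.28). Without the block, the log2 fold change of Psma5 was 0.35 and that of Psmb6 0.43, and both were negative without the NOD library of batch 4 (-2.22 and -0.95).

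Psmc3, one of the ATPases of the base (chr2:91054009-91066369, plus strand, mm10), was at 247, 145, 255 and 207 CPM in NOD and 205, 88.5, 173 and 115 CPM in B16A libraries. NOD was higher in each batch, by log2 ratios of 0.27, 0.71, 0.56 and 0.85, and the ranges of the hosts overlapped. The NOD mean was 214 ± 50.3 CPM and the B16A mean 145 ± 53.2 CPM (SD, n = 4 each). The log2 fold change was 0.56 (SE 0.34) without the batch term and 0.60 (SE 0.14, adjusted p = 0.683) with the block in edgeR, and 0.61 (adjusted p = 0.0326) with the block in DESeq2. Psmc3 shares 215 exon bases with Slc39a13 on the opposite strand, whose CPM was lower in NOD in batches 1 to 3. Psmc5, a further ATPase of the base, was at 231, 198, 291 and 202 CPM in NOD and 245, 157, 169 and 116 CPM in B16A libraries, higher in NOD in batches 2 to 4.

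Psmd13, a subunit of the lid, was at 57.3, 53.1, 61.6 and 52.9 CPM in NOD and 53.3, 25.7, 24.8 and 38.2 CPM in B16A libraries. The NOD values were close together, at 56.2 ± 4.11 CPM, and the B16A values were not, at 35.5 ± 13.3 CPM (SD, n = 4 each). The hosts overlapped only through the B16A library of batch 1, which lay above the 2 lowest NOD libraries. The log2 fold change was 0.66 (SE 0.31) without and 0.72 (SE 0.20, adjusted p = 0.683) with the block in edgeR. Psmd13 shares 342 exon bases with Sirt3 on the opposite strand, at 9.05 to 21.7 CPM, which was lower in NOD in batches 1 to 3 and higher in batch 4.

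The activators differed among themselves. Psme3, which forms the nuclear activator, was at 93.3, 93.9 and 84.2 CPM in NOD and 94.5, 90.2 and 85.3 CPM in B16A libraries of batches 1 to 3. Its batch 4 values were 22.5 CPM for NOD and 46.5 CPM for B16A. Its hosts were thus within 0.06 log2 units of each other in batches 1 to 3 and 1.04 apart, lower in NOD, in batch 4 alone. Psme4, a large nuclear cap, was at 56.3, 51.2, 66.2 and 112 CPM in NOD and 65.6, 62.7, 66.2 and 164 CPM in B16A libraries, with a log2 fold change of -0.27 (SE 0.15) with the block. Psme2, a subunit of the interferon-induced activator, had log2 ratios of -0.65, -1.13, -0.15 and 0.50, while its partner Psme1 had 0.09, -0.01, 0.03 and 0.33. By these ratios the pair that forms 1 ring did not move together between hosts in batches 1 and 2. Psme2 had 49 to 130 counts in the libraries of those batches. Its reads could have been split with its near-copy Psme2b, so its ratios are uncertain.

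**Figure D3:**
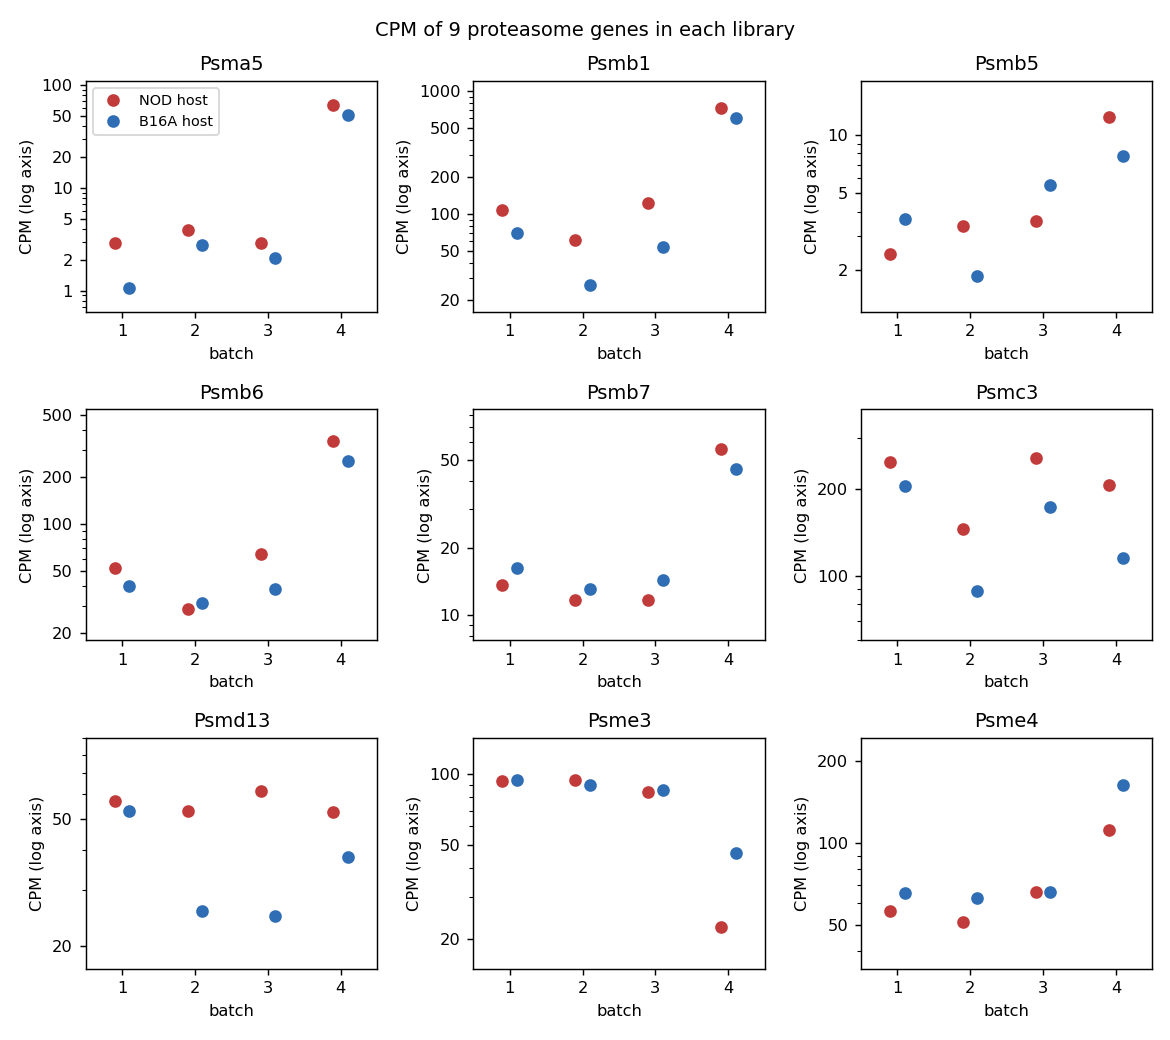
CPM of 9 proteasome genes in each library on log axes, with batch on the horizontal axis and 1 point per library, red for NOD and blue for B16A hosts. Psmc3 and Psmd13 hold their range across the batches, Psme3 drops to 22.5 and 46.5 CPM in batch 4, and the other 6 are highest there.

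The second comparison set the 2 libraries of batch 4 against the 6 of batches 1 to 3, with the host as a covariate in edgeR. It was made because batch 4 was known to stand apart, and it describes those libraries and no condition of the study. Of the 45 tested members, 38 were called higher in batch 4 and 2 lower, beside 31.4% of all tested genes higher and 40% lower. The median log2 difference was 2.11 for the members and -0.27 for all tested genes. Both batch 4 libraries lay above the other 6 for 38 members, beside 31.8% of all tested genes, and below them for 2, beside 40.4%. With the sizes of DESeq2 the member median was 1.97 and that of all genes -0.42, and 38 members were called higher and 3 lower, beside 28.7% and 42.9% of all tested genes. With upper-quartile scaling these medians were 1.44 and -0.94, and 33 members were called higher and 6 lower, beside 19.8% and 52.9%.

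By role, 13 of 14 core genes were called higher, with a median of 2.53, including the 7 tested alpha subunits and the 3 catalytic subunits. Psma5 had the largest difference of the members, at 4.48 (SE 0.27, adjusted p = 4.94e-09). Psmb1 differed by 3.27 (SE 0.29, adjusted p = 6.24e-07), Psmb2, a structural beta subunit, by 3.28, and Psmb6 by 2.80, while Psmb4, a further beta subunit, at 0.56, was not called. Of the base and lid genes 17 of 21 were called higher, with a median of 1.56. Psmc6 differed by 4.22 (SE 0.18, adjusted p = 2.92e-10): its libraries ran from 10.5 to 19.6 CPM in batches 1 to 3 and stood at 277 and 275 CPM in batch 4. Psmd14, the deubiquitinating subunit of the lid, ran from 28.6 to 50.8 CPM over the first 3 batches and reached 269 and 194 CPM in batch 4.

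Some subunits of the same particle did not share this difference. Psmc3 differed by -0.24 (SE 0.28, adjusted p = 0.451), Psmc5 by -0.47 (SE 0.22, adjusted p = 0.0634) and Psmd13 by 0.02 (SE 0.26, adjusted p = 0.962), all in edgeR. Psmd3, a lid subunit, was lower, with a log2 difference of -1.19 (SE 0.21, adjusted p = 0.000159). It ran from 38.7 to 51.8 CPM over batches 1 to 3 and had 18.3 and 23 CPM in batch 4. Among the activators Psme3 was lower, with a log2 difference of -1.43 (SE 0.24), and the other 4 were higher, from 1.15 for Psme4 to 3.67 for Psme2. Of the 5 inhibitor and chaperone genes 4 were higher, with Psmg2 at 2.98, and Psmg1 at -0.13 was not called. Across the 45 members the difference had a Spearman correlation of -0.31 with GC content and -0.27 with the length of the longest transcript, and over 13706 tested genes -0.15 and -0.28. Those are descriptions across genes that share the same libraries. The part of depth and of library composition, whose batch 4 values are given above, in these differences was not tested.

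**Figure D4:**
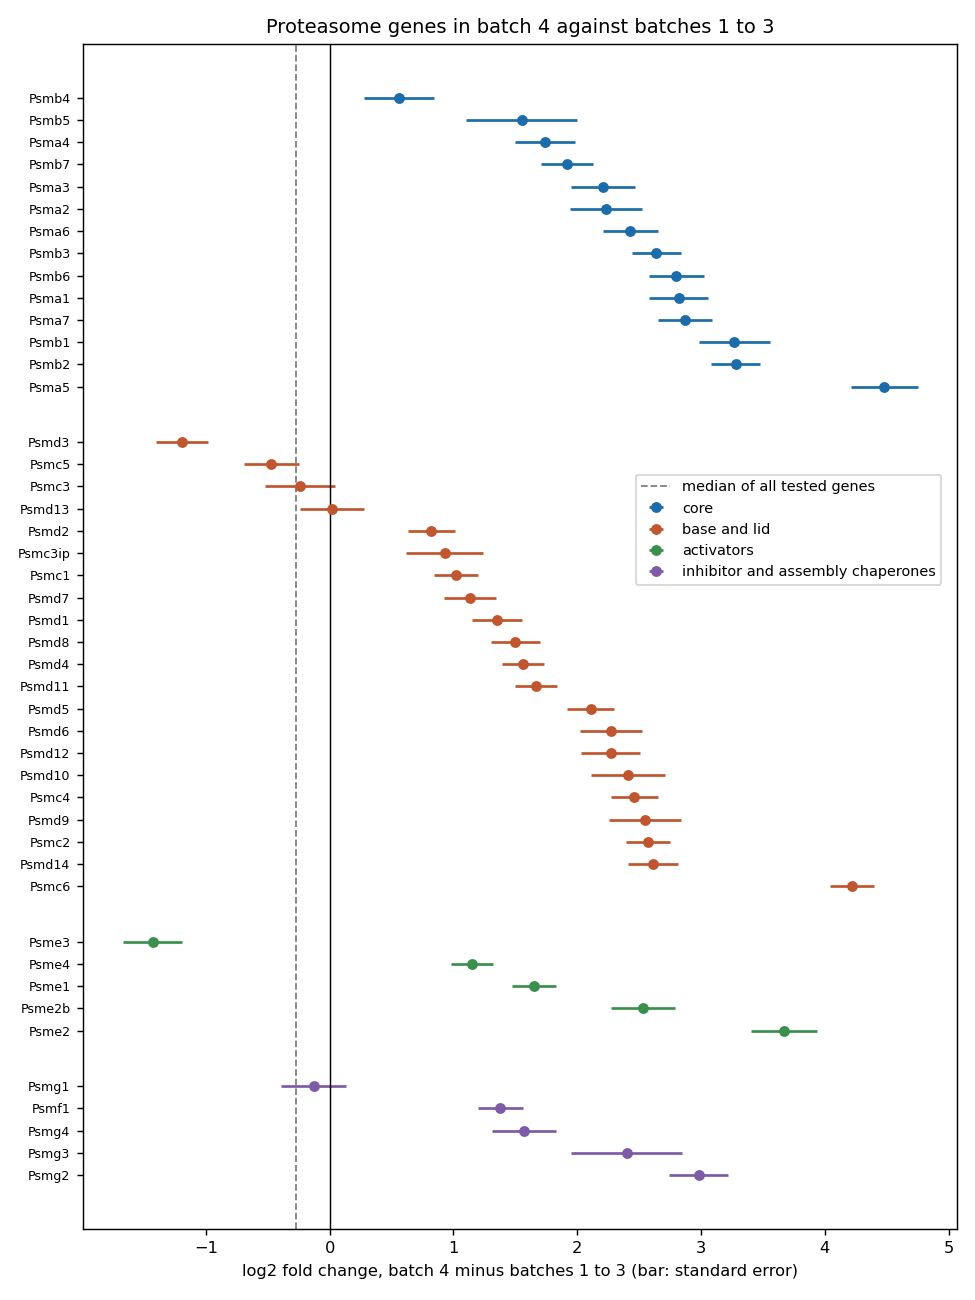
Log2 fold change of each tested proteasome gene in the 2 batch 4 libraries against the 6 libraries of batches 1 to 3, by role; bars are standard errors, the solid line marks 0 and the dashed line the median of all tested genes at -0.27. The core genes lie between 0.56 and 4.48, and Psmd3 and Psme3 lie lowest at -1.19 and -1.43.

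Genes around the proteasome were followed with lists chosen by function. Of their 38 tested genes, 0 were called between the hosts in edgeR without the block, with it, or with it and without batch 4, and 0 in DESeq2 and limma voom with the block. An unadjusted p below 0.05 was found for 0, 3 and 4 of them in the 3 edgeR fits, beside 0.233%, 5.87% and 8.37% of all genes tested in each fit. Of 12 accessory and assembly factors, 10 had a log2 fold change above 0 with the block, with a median of 0.13, beside 7498 of 14607 tested genes and a median of 0.01. Above 0 were also 2 of 5 ubiquitin supply genes, 7 of 8 regulators and 6 of 10 genes that deliver substrates. Usp14, a deubiquitinase that sits on the cap, was at 20.5, 18.3, 26.1 and 149 CPM in NOD and 17.5, 9.83, 13.9 and 115 CPM in B16A libraries, higher in NOD in each batch, with a log2 fold change of 0.58 with the block (SE 0.18, adjusted p = 0.734). Uchl5, a further deubiquitinase of the cap, was at 0.36 (SE 0.20) and Zfand2a, a stress-induced factor that binds the cap, at 0.47 (SE 0.21). Of 10 genes that deliver substrates, Ubqln4, a ubiquilin shuttle, was at -0.60 (SE 0.22, adjusted p = 0.777), Ubqln2 at -0.27 and Ufd1, a cofactor of the segregase Vcp, at 0.28. Of 5 genes that supply ubiquitin, Uba1, the main activating enzyme, was at -0.21 and the ubiquitin gene Ubb at -0.19. Of 8 regulators of proteasome genes, Ngly1, which processes Nfe2l1, was at 0.22, Keap1 at 0.18 and Nfyc at 0.16.

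Between batch 4 and the other batches, where 31.4% of all tested genes were higher and 40% lower, 9 of the 12 accessory and assembly factors were higher, and Sem1, a small lid subunit whose symbol falls outside the pattern, differed by 4.37. Ubiquitin genes were higher for 3 of 5: Ubb went from 58.3 to 105 CPM in batches 1 to 3 to 1543 and 965 CPM in batch 4, a log2 difference of 3.98 (SE 0.21). Of the 8 regulators, 3 were higher and 2 lower, and of the 10 genes that deliver substrates 4 were higher and 3 lower. Nfe2l1 was among the lower ones, at 50.8 to 82.2 CPM in batches 1 to 3 and 28.6 and 29.7 CPM in batch 4, with a log2 difference of -1.06 (adjusted p = 0.000795), and the other was Nfya at -1.62. Sem1, Nfe2l1 and Nfya were named after their values were seen. Of the 3 immunoproteasome subunits Psmb9 and Psmb10 were higher, and Psmb8 was at 214 to 480 CPM in NOD and 155 to 387 CPM in B16A libraries over all batches, without a call. Members with TGACNNNGC in their promoter had a median batch 4 difference of 2.41 over 6 genes and those without it 1.93 over 32. For CCGGAAG the medians were 1.56 over 15 genes and 2.23 over 23.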

How the data were processed

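Per the labels' protocols, RNA of sorted T cells went through SeqPlex amplification and single-end sequencing with 50-base reads. The authors deposited 1 table of raw counts per gene, with no scaling. The submitters' processing notes name STAR, HTSeq, DESeq2 and mm10. For the annotation, settings and strand use, the sources used here give nothing. Samples were grouped by their labels.

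The tests ran in R 4.3.3 with edgeR 4.0.16 (quasi-likelihood test, robust, filterByExpr on host, TMM, Benjamini-Hochberg over all tested genes, threshold 0.05), which kept 14607 genes and removed 32018. Host fits had no batch term. Alternatives were the batch as a replicate block, DESeq2 1.42.0, limma 3.58.1 voom with quality weights, other scalings and filters, and each library or batch left out. Within-batch ratios are differences of log2 CPM with a prior count of 2. The labels call the shared number a batch, which pairs the libraries. Deviations from the host means correlated across genes at r = 0.625, 0.702, 0.611 and 0.906 within batches 1 to 4. Libraries differed by a chi-square of at least 7.04 per degree of freedom, so none was a duplicate. Scripts were tested on simulated data.

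The members, lists and rules were chosen with earlier results of these data known. Values per library are given for members called between hosts, the 2 of each main group with the smallest p with the block, the 3 catalytic subunits and the member with the largest batch 4 difference in each direction (at least 4 CPM), and up to 3 genes per list are named. Some list genes are not reported here. Psma2, Psma6, Psmb2, Psmb4, Psmc5, Psmc6, Psmd3, Psmd4, Psmd14, Psme1 and Psme2 were named after their values were seen. Exon lengths and overlaps come from GENCODE vM21, which matched 47 of 47 members, and promoters from RefSeq, which matched 39.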

Additional observations from a re-analysis of the deposited data

Results flagged for a closer look

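Among the 9 genes with values per library, each host's 4 values were checked for 1 library far from the other 3, by the gap to the nearest value as a share of the range. Of 18 such sets 11 had one, and each was the batch 4 library. Over all 45 tested members it was 55 of 90. Chance gives about 1 in 20 for independent sets, but these share the same libraries, and Psma5 and Psme3 were named for their batch 4 differences. The share of such sets over all tested genes was not counted. Both batch 4 libraries lay above the other 6 for 31.8% of all tested genes and below them for 40.4%. Psma5 was far above the rest with 63.5 CPM in the NOD and 51.3 CPM in the B16A library. Psmb1 was at 732 and 610 CPM, Psmb6 at 343 and 253 CPM and Psmb7 at 55.7 and 45.5 CPM in the same order. Psmb5 stood apart in NOD alone, at 12.3 CPM, and Psme4 in B16A alone, at 164 CPM. Psme3 was the gene with a low batch 4 value, at 22.5 CPM in NOD. Psmc3 and Psmd13 had no library apart in either host.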

How the results depend on the processing

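With the replicate block, DESeq2 called 21 genes and 2 members between hosts, limma voom 9 and 1, and edgeR without batch 4 called 32 and 1, against 0 in the other settings. The activator median was -0.25 with the block in edgeR, -0.24 in DESeq2 and -0.33 without batch 3. The fold change of Psmb5 turned to -0.45 in voom, -0.03 in voom with the block, -0.23 without batch 4, -0.15 with the block too, and -0.11 with the block and without batch 2. Psmb7 turned to -0.03 with upper-quartile scaling, -0.23 in voom, -0.25 without batch 4 with or without the block, and with the block to -0.09 in edgeR, -0.08 in DESeq2, -0.12 in voom and -0.05, -0.06 and -0.02 without batches 1, 2 and 3. Psme3 was at 0.01 in voom and without batch 4, with or without the block. The cause was not tested. The block changed no other call. The NOD library of batch 2 correlated best with a B16A library of another batch (r = 0.741).

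Leaving out each library in turn moved medians from -0.78 to 0.94 for the members, -0.93 to 1.36 for the core, -0.51 to 0.73 for base and lid and -0.67 to 0.76 for the activators. Single genes ran from -2.22 to 3.26 (Psma5), -1.02 to 2.39 (Psmb1), -0.63 to 0.61 (Psmb5), -0.95 to 1.78 (Psmb6), -0.91 to 0.71 (Psmb7), 0.38 to 0.77 (Psmc3), 0.52 to 0.92 (Psmd13), -0.29 to 0.18 (Psme3) and -0.67 to 0.16 (Psme4). Except for Psmc3 and Psmd13, the ends were the fits without a batch 4 library. Calls between hosts were 0 to 0. Batch 4 calls ran from 10387 to 11179 genes and 39 to 41 members, and without a filter on low counts, where more genes were tested, 22041 genes were called against 10443. Low counts limit Psma5 and Psmb5 in batches 1 to 3.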
